A study of Rattus norvegicus with 18 samples.

Results

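The hippocampus arrays compared gene expression between rats of the WHP strain, selected for high ethanol preference, and rats of the WLP strain, selected for low ethanol preference. They are the 6 of 18 arrays whose label gives the hippocampus as the source. The other 12 arrays carried RNA of the nucleus accumbens or the prefrontal medial cortex, with 6 arrays for each area. All rats of both strains were male, had never been given alcohol, were caged with their brothers and were killed by decapitation. Their ages are not given in the sources used here. Each pool combined total RNA of 3 rats in equal shares, so that the spread between single rats was not measured. A pool of each strain was labelled with Cy3 or Cy5 and the pair was hybridised together to an Agilent rat array of 60-base probes. Every pair of pools was hybridised again with the dyes swapped, and the log2 ratios of WHP over WLP from both arrays were averaged, which gave n = 3 pool pairs. The labels do not say whether 1 rat gave tissue to the pools of several areas.

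The hippocampus is a cortical structure built of the pyramidal cell fields CA1, CA2 and CA3 and of the dentate gyrus, whose granule cells go on being formed in adult rats. It is known for its part in spatial and episodic memory. GABA interneurons set the timing and the gain of its principal cells, and ethanol acts on the GABA and glutamate receptors through which these cells signal. The choroid plexus of the lateral ventricle lies against it.

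The hippocampus label was set against marker genes of brain areas. The mean signal of 12 hippocampus markers in the hippocampus exceeded the median of the array by 1.97 ± 0.05 log2 units (SD over 6 arrays), against 1.19 ± 0.03 in the prefrontal medial cortex and 0.74 ± 0.04 in the nucleus accumbens. For 14 striatum markers the mean was 1.50 ± 0.18 in the hippocampus, against 3.14 ± 0.28 in the prefrontal medial cortex and 3.21 ± 0.30 in the nucleus accumbens. In the other marker lists the hippocampus stood close to another area. The 10 cortex markers stood at 1.79 ± 0.04 in the hippocampus. They stood at 1.92 ± 0.06 in the prefrontal medial cortex and 0.96 ± 0.09 in the nucleus accumbens. The 8 thalamus and septum markers stood at 2.03 ± 0.21 in the hippocampus. Their values were 1.91 ± 0.09 in the nucleus accumbens and 1.29 ± 0.07 in the prefrontal medial cortex. Median signals of the 6 arrays ran from 155 to 209 units in the green channel and from 252 to 303 in the red channel, and no spot was saturated. The arrays of the other areas were dimmer, at 78 to 100 units in the green channel and 133 to 186 in the red channel. The dye-swapped arrays of pool pair 1 correlated at r = 0.63 over probes and those of pool pair 3 at r = 0.32, but those of pool pair 2 did not correlate (r = -0.004). The number of arrays limits the precision.

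Of 34752 probes detected in the hippocampus, 126 (0.363%) differed between the strains (limma, Benjamini-Hochberg adjusted p under 0.05), 77 higher in WHP (0.222%) and 49 lower (0.141%). At an unadjusted p under 0.05 there were 2288 probes. Ratios of all 126 had 1 sign in the 3 pool pairs, and 124 had it on all 6 arrays. The median size of these ratios was 0.62 log2 units, the smallest was 0.26, and 23 probes differed by over 2-fold, 13 of them higher and 10 lower. Only 39 of the 126 probes, for 37 genes, could be given a gene symbol. With the brightest probe of each gene, 33 of 14614 genes (0.226%) differed, 15 higher (0.103%) and 18 lower (0.123%), and the median ratio of all genes was -0.00. The count was 35 probes without hippocampus pool pair 1, 26 without pair 2 and 16 without pair 3, and 5 of the 33 genes passed in all 3 cases: Tac4, Scn9a, Sult1c2a, Or5b123b and Or10j3b. The count was 76 without prefrontal medial cortex pool pair 3 and 0 with a variance model that lets the spread follow the signal and discounts outlying probes (1944 probes at an unadjusted p under 0.05). It was 46 with the replicate number as a block.

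**Figure D1:**
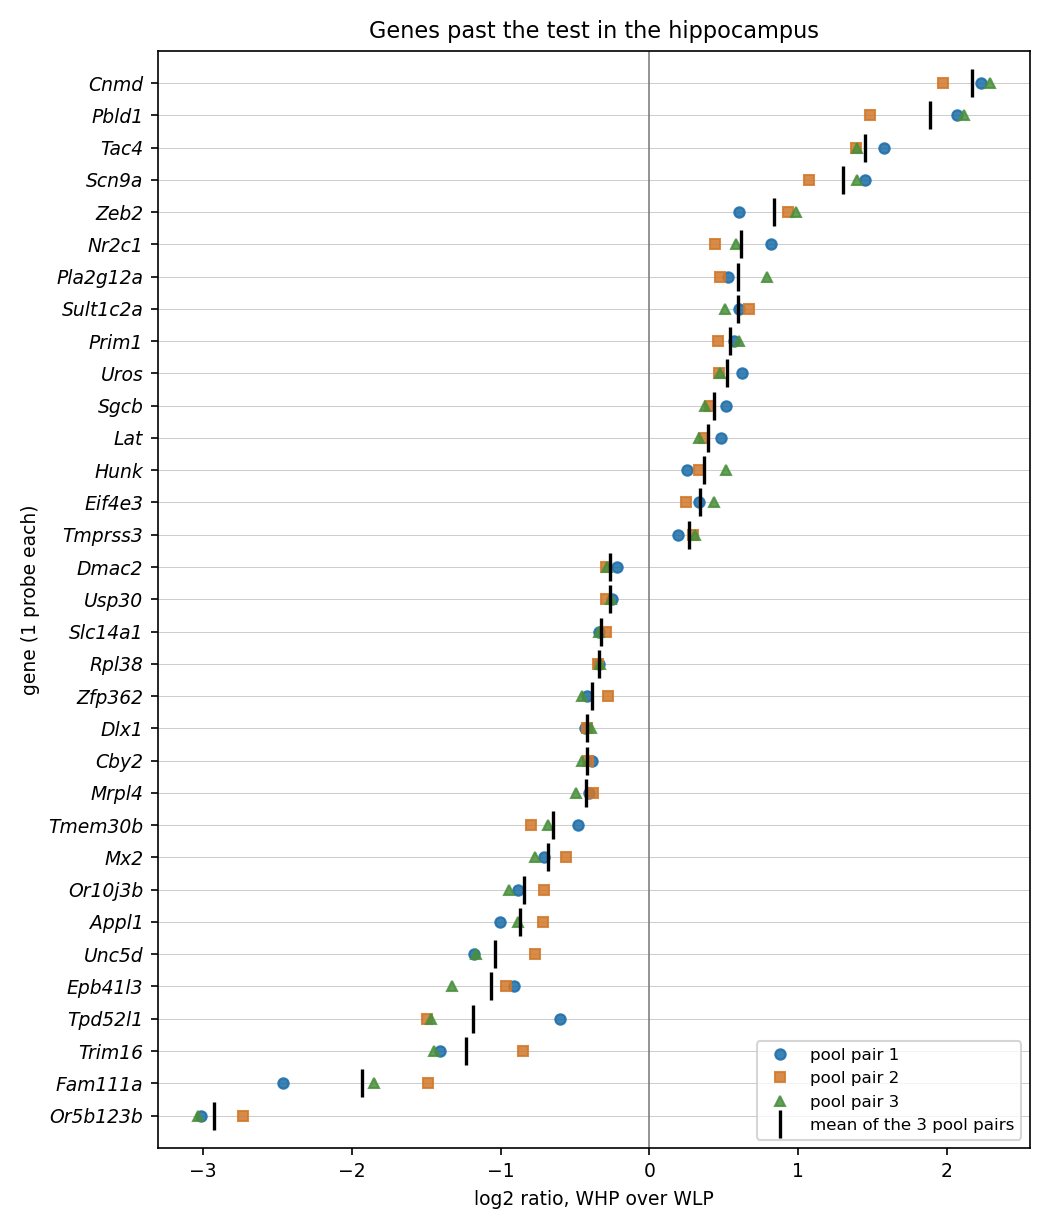
Log2 ratio of WHP over WLP in the hippocampus for the 33 genes that passed with their brightest probe; coloured points are the 3 pool pairs and the black bar is their mean. Ratios run from -2.93 for Or5b123b to 2.17 for Cnmd, and no gene has pool pairs on both sides of 0.

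The genes that were higher in WHP were led by Cnmd, Pbld1, Tac4 and Scn9a. Cnmd encodes chondromodulin, a cartilage glycoprotein that inhibits vessel growth, and its ratios were 2.23, 1.98 and 2.29 in the 3 pool pairs. This was 4.5-fold higher in WHP (log2 ratio 2.17 ± 0.25, moderated SE, n = 3, limma adjusted p = 0.0123), at mean log2 signals of 9.94 and 7.77. The SE rests on the spread of the pool pairs of all areas, and the SD of the 3 hippocampus pool pairs was 0.17. Its probe lies at chr15:60891265-60891324 of rn4. Pbld1, a phenazine biosynthesis-like domain protein, had ratios of 2.07, 1.49 and 2.11 and a mean of 1.89 ± 0.28 (limma adjusted p = 0.0392). All 3 pool pairs of both genes differed by more than 2-fold, and pool pair 2 was the lowest each time.

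Tac4, which encodes tachykinin peptides, had ratios of 1.58, 1.39 and 1.40. The 3 pairs lay close together, and the mean of 1.45 ± 0.07 was 2.74-fold (limma adjusted p = 0.000204, probe at chr10:83953767-83953826). Scn9a, a voltage-gated sodium channel of sensory and other neurons, had ratios of 1.45, 1.07 and 1.40 and a mean of 1.31 ± 0.09 (limma adjusted p = 0.00103). Its probe was dim, with mean log2 signals of 8.18 in WHP and 6.87 in WLP, though well above background on all 6 arrays in both strains. Tac4 and Scn9a passed in 24 of the 25 alternative analyses, against 17 for Cnmd and 13 for Pbld1.

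The other 11 genes that were higher differed by less than 2-fold. Zeb2, a zinc finger transcription factor, had ratios of 0.60, 0.93 and 0.99, with a mean of 0.84 ± 0.10 (limma adjusted p = 0.0127). Its ratio was 0.52 on arrays with WHP in Cy5 and 1.16 on arrays with WHP in Cy3. Prim1, the catalytic subunit of DNA primase, had ratios of 0.57, 0.46 and 0.61. Uros, an enzyme of haem synthesis, had ratios of 0.62, 0.47 and 0.48, and Pla2g12a, a secreted phospholipase A2, had 0.53, 0.48 and 0.79. None of these pool pairs came near 0. The orphan nuclear receptor Nr2c1 (0.62 ± 0.09) and the sulfotransferase Sult1c2a (0.60 ± 0.04) rose by a like amount; the Sult1c2a probe was well above background on 6 of 6 arrays in WHP and 4 of 6 in WLP. Smaller increases were measured for the sarcoglycan Sgcb (0.43), the T cell adaptor Lat (0.39), the kinase Hunk (0.37), the cap-binding protein Eif4e3 (0.34) and the serine protease Tmprss3 (0.27). Eif4e3 and Tmprss3 passed in 4 of the 25 alternative analyses.

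The largest decrease belonged to an olfactory receptor gene, Or5b123b. Its ratios were -3.01, -2.73 and -3.04, and the mean of -2.93 ± 0.14 was 7.61-fold lower in WHP (limma adjusted p = 0.000204). Mean log2 signals were 7.99 in WHP and 10.91 in WLP. A second olfactory receptor gene, Or10j3b, had ratios of -0.88, -0.71 and -0.95, with a mean of -0.84 ± 0.06 (limma adjusted p = 0.00103). These receptors signal odours in the nose. Of 1102 olfactory receptor genes on the array 787 were detected in the hippocampus, and these 2 were the only ones that passed (0.254%, near the 0.226% of all genes). The median of the 787 was -0.01, with 299 ratios above 0 and 488 below. Olfactory receptor genes form a large family of similar sequences, so each value belongs to its probe, and the probes of Or5b123b (chr1:216310307-216310366) and Or10j3b (chr13:89424714-89424773), as the deposited files give them, are printed here because the genes are known from 1 probe each.
Or5b123b probe: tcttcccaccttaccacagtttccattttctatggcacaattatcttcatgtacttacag
Or10j3b probe: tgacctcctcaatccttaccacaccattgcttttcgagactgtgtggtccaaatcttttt

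Fam111a, a chromatin-bound protease, had ratios of -2.47, -1.49 and -1.85, with a mean of -1.93 ± 0.28 (3.82-fold lower, limma adjusted p = 0.0338). Its probes and that of Or5b123b lie on the same stretch of chromosome 1. Trim16, a ubiquitin ligase, had ratios of -1.41, -0.85 and -1.45. Tpd52l1 had ratios of -0.60, -1.50 and -1.47, so that pool pair 1 stood apart from the others. Its mean of -1.19 ± 0.19 passed (limma adjusted p = 0.0485), but it passed in only 7 of the 25 alternative analyses.

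Epb41l3, Unc5d and Appl1 were lower in all 3 pool pairs as well. Epb41l3, a membrane skeleton protein abundant in neurons, had ratios of -0.91, -0.96 and -1.33 at high signals, 13.29 in WHP and 14.35 in WLP on the log2 scale. Its mean was -1.07 ± 0.13 (limma adjusted p = 0.0169). Unc5d, a receptor for netrins, had ratios of -1.18, -0.77 and -1.17 (mean -1.04 ± 0.13), and Appl1, an adaptor of early endosomes, had -1.002, -0.71 and -0.89 (mean -0.87 ± 0.10). Pool pair 2 had the smallest decrease in both. Mx2, an interferon-induced GTPase, fell by 0.68 ± 0.06, and Tmem30b, a subunit of lipid flippases, fell by 0.65 ± 0.10.

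The remaining decreases were below 0.5 log2 units. Dlx1, a homeobox factor of GABA interneurons, had ratios of -0.44, -0.42 and -0.39 and a mean of -0.42 ± 0.07 (limma adjusted p = 0.0479), and passed in 6 of the 25 alternative analyses. Rpl38, a protein of the cytosolic ribosome, had ratios of -0.34, -0.34 and -0.33, which averaged -0.19 on arrays with WHP in Cy5 and -0.48 on arrays with WHP in Cy3. Mrpl4, of the mitochondrial ribosome, fell by 0.43 ± 0.05, Cby2 by 0.42 ± 0.05 and the zinc finger protein Zfp362 by 0.38 ± 0.05. The 3 genes with the smallest decreases were the urea transporter Slc14a1 (-0.32), the mitochondrial deubiquitinase Usp30 (-0.27) and the complex I assembly factor Dmac2 (-0.26). With the scanner's own processed signals, which differ in background correction and in normalisation, 8 of the named ratios were over 1.5 times as large: 2.20 for Scn9a, 1.53 for Sult1c2a, 0.50 for Tmprss3, -3.31 for Fam111a, -2.03 for Trim16, -1.13 for Mx2, -1.33 for Tmem30b and -0.68 for Zfp362. With the offset of the background correction lowered from 50 to 16 and nothing else changed, the same 8 ratios were 1.24 to 1.45 times as large. The ratio of Sult1c2a was 0.93 in the authors' deposited table.

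Of the 37 genes with a probe that passed, 14 had several probes detected in the hippocampus. Both probes passed for 2 of these genes. The second probe of Prim1 had ratios of 0.80, 0.59 and 0.86 (mean 0.75 ± 0.07, limma adjusted p = 0.0073), and the second probe of Fam111a had -1.73, -0.87 and -1.36 (mean -1.32 ± 0.21, limma adjusted p = 0.0479). For the other 12 genes some probe did not pass. The second probe of Scn9a stood at 0.04, that of Unc5d at 0.03, that of Tmem30b at 0.04, that of Sult1c2a at 0.10 and that of Trim16 at -0.17. For Appl1 both other probes stood at -0.03. For Dmac2 the second probe had nearly the same ratio (-0.34) and missed the threshold (limma adjusted p = 0.0751). For Neto2 (-0.45), Pced1b (-0.45), Treml1 (0.33) and Lsg1 (0.35) the probe that passed was the dimmer one, and the brightest probes of these 4 genes stood at -0.24, -0.06, 0.03 and -0.02. The files place the Lsg1 probe that passed on chromosome 7 and the brightest one on chromosome 11, so they may not read the same transcript. The Neto2 probe that passed was measured on 5 of the 6 arrays. The match of the probes to each strain's sequence was not analysed here.

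**Figure D2:**
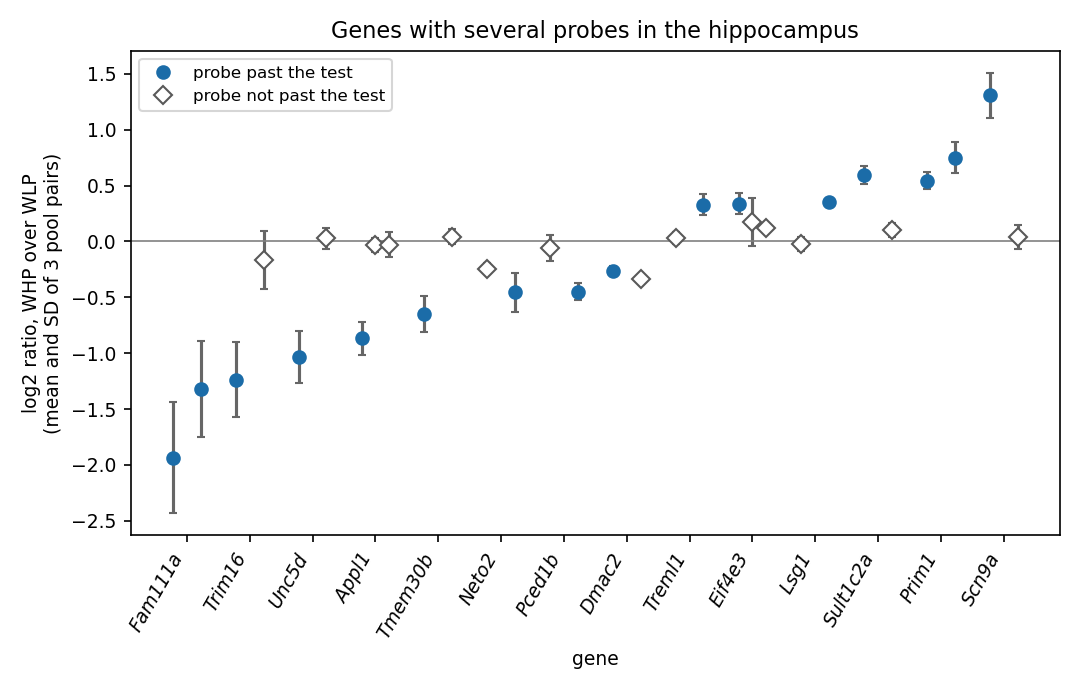
Log2 ratio of WHP over WLP in the hippocampus (mean, with bars for the SD of 3 pool pairs) for every probe of the 14 genes that had several detected probes and at least 1 that passed; filled circles passed and open diamonds did not. Both probes of Prim1 and of Fam111a passed, whereas the second probes of Scn9a, Unc5d and Tmem30b lie near 0.

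Of the probes placed on the mitochondrial genome, 7 of 46 tested (15.2%) passed, against 0.363% of all probes, with 5 higher and 2 lower. Several of the 46 overlap or read the same transcript, so they are not separate observations, and the share is not one of genes. Both lower probes are placed on the minus strand, at mean log2 signals of 8.19 and 8.76, and some of the higher ones are placed there too. Mitochondrial DNA codes for subunits of the respiratory chain and for the ribosomal and transfer RNAs of the organelle. The transcript of cytochrome c oxidase subunit 2 was read by 8 probes along its length, some of which overlap. A probe of another name, placed at chrM:7537-7595 with a mean of 0.02, was left out. Its sequence did not match that of the neighbour it overlaps. The probe at chrM:7366-7425 had ratios of 1.01, 1.02 and 0.89 (mean 0.97, limma adjusted p = 0.00588), and the probe at chrM:7525-7584 had 1.43, 1.46 and 1.32 (mean 1.41, limma adjusted p = 0.000466). The other 6 probes of the same transcript had means between -0.24 and 0.01. The neighbour at chrM:7326-7385, which shares 20 bases with the first of these, had ratios of 0.04, 0.05 and -0.07, and the neighbour at chrM:7585-7644, which begins where the second ends, had a mean of -0.11. The difference was thus called at 2 of the 8 probes, and by 0.89 or more in every pool pair at both of them. These values are means of dye-swapped arrays, and single arrays differed by dye. At chrM:7366-7425 they ran from 0.51 to 0.53 with WHP in Cy3 and from 1.27 to 1.51 with WHP in Cy5. At chrM:7525-7584 they ran from 0.79 to 0.86 with WHP in Cy3 and from 1.86 to 2.06 with WHP in Cy5. The sequences of these 4 probes, as the deposited files give them with rn4 positions, show where along the transcript the ratio changed, and capitals mark the bases shared by overlapping probes.
chrM:7326-7385: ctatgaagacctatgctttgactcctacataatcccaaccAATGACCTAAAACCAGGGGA
chrM:7366-7425: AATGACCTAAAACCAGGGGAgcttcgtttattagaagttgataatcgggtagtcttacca
chrM:7525-7584: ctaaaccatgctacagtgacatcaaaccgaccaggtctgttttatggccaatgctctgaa
chrM:7585-7644: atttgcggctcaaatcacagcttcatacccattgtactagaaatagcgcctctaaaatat

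**Figure D3:**
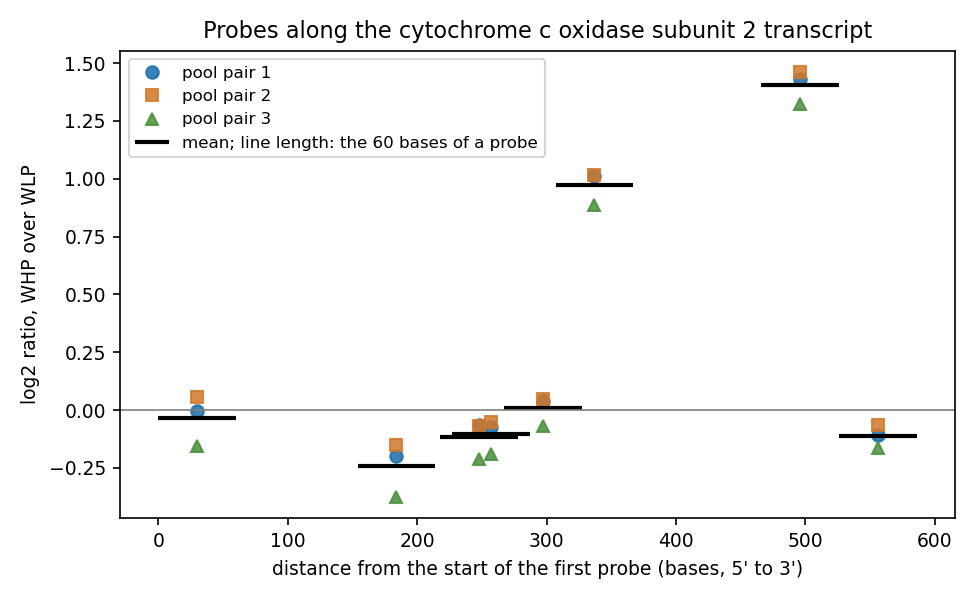
Log2 ratio of WHP over WLP in the hippocampus for the 8 probes of cytochrome c oxidase subunit 2, against the distance in bases from the start of the first probe; coloured points are the 3 pool pairs, and black lines are their mean, drawn over the bases each probe covers. The 2 probes that passed stand at 0.97 and 1.41 and the other 6 between -0.24 and 0.01.

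The largest ratio of all hippocampus probes belonged to another transcript with probes on mitochondrial DNA. The files hold 3 probes for 1 transcript that they describe as CDK109 mRNA, and they place 2 of the 3 on mitochondrial DNA. The probe for which the files give no position had ratios of 3.03, 3.26 and 2.88 (mean 3.06, limma adjusted p = 0.00017). It shares 33 bases, in capitals, with the probe at chrM:1530-1589, whose ratios were 0.40, 0.66 and 0.36 (mean 0.47, limma adjusted p = 0.493). The third, at chrM:1289-1348, had a mean of -0.27. The mean ratios of the overlapping pair thus differed by over 2 log2 units although 33 of their 60 bases are the same.
CDK109, chrM:1530-1589: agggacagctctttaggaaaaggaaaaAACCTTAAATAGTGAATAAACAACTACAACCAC
CDK109, no position: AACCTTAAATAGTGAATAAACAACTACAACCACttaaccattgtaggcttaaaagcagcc
CDK109, chrM:1289-1348: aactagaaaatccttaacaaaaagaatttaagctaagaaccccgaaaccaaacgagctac

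On the nuclear chromosomes 103 of the 126 probes had a position, and 37 of them lay within 1 Mb of another one, in 14 neighbourhoods that held 147 tested probes. The densest was at chr14:4396758-4533580, where 10 of 13 tested probes passed, all higher in WHP. On the whole of chromosome 14, 14 of 1040 probes passed (1.35%). These 10 probes belong to only 2 predicted transcripts without a symbol, and 9 of them read the same transcript, so they are not separate observations. In 11 of the 14 neighbourhoods the probes that passed went the same way. Some of the 11 hold probes of 1 gene or probes a few kb apart, such as those of Prim1 within 1.1 kb and of Uros and a neighbour within 5.0 kb. These are not separate observations either. The neighbourhoods were bounded by the probes that passed, and no such share was counted for all tested probes. At chr1:215594902-216310366 the probes that passed were 3 of 20 tested, both of Fam111a and that of Or5b123b. An unnamed transcript on the opposite strand next to Epb41l3 fell by 0.84. In the other 3 neighbourhoods they went both ways. Tac4 rose and an unnamed probe within 1 Mb fell by 0.69, Neto2 fell and a predicted transcript rose by 0.71, and Pla2g12a rose by 0.60 whereas an unnamed probe on the opposite strand, less than 1 kb away, fell by 0.31.

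Gene lists of cell types and pathways were then read for their balance, with the brightest probe of each gene. Of 37 lists, 31 had no member that passed. In a tissue homogenate, fewer cells of a type and less RNA per cell cannot be told apart. Among all genes, 7286 ratios (49.9%) lay above 0 and 7328 below, and 2702 were above 0 and 2743 below 0 in all 3 pool pairs. Markers of the cells that define the tissue were centred near 0: the median was 0.03 for CA1 pyramidal cells, 0.01 for CA2, 0.01 for CA3 and -0.06 for dentate granule cells. Adult neurogenesis genes had a median of 0.04.

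**Figure D4:**
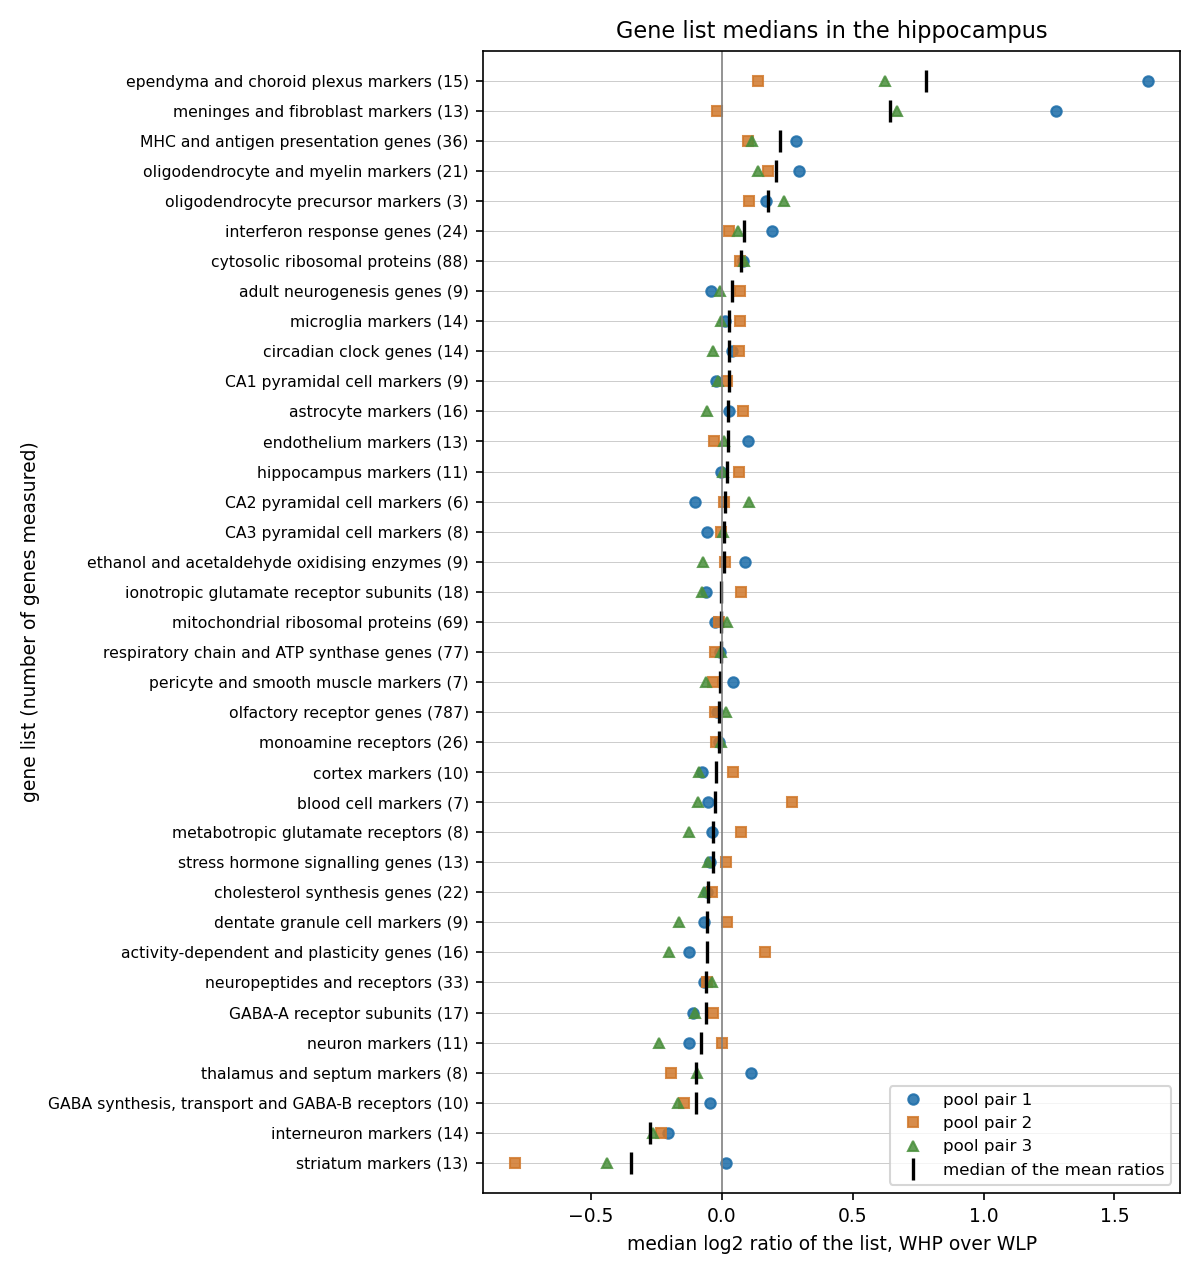
Median log2 ratio of WHP over WLP in the hippocampus for each gene list, with coloured points for the 3 pool pairs and a black bar for the median of the mean ratios; the number of genes measured stands in brackets. Oligodendrocyte markers lie above 0 and interneuron markers below 0 in all 3 pool pairs, whereas choroid plexus, meninges and striatum markers spread widely between pool pairs.

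Markers of oligodendrocytes, the cells that wrap axons in myelin, stood above 0 without any member passing the test. All 21 had a positive ratio, 18 of them in all 3 pool pairs, with medians of 0.30, 0.18 and 0.14 in the pairs and 0.21 for their means (0.09 on arrays with WHP in Cy3). The tight junction protein Cldn11 had ratios of 1.10, 0.46 and 0.57 and a mean of 0.71 ± 0.26 (limma adjusted p = 0.61). The myelin surface protein Mog had ratios of 0.32, 1.01 and 0.28. The medians of the same list were -0.07 in the nucleus accumbens and -0.01 in the prefrontal medial cortex. The 3 precursor markers stood at 0.29 for Pdgfra, 0.18 for Vcan and 0.01 for Cspg4, none passed, and Vcan was at -0.06 on arrays with WHP in Cy3.

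Markers of GABA interneurons stood below 0. Of 14 measured, 12 had a negative ratio, 8 of them in all 3 pool pairs, with pair medians of -0.20, -0.23 and -0.26. Dlx1 was the only one that passed. The enzymes of GABA synthesis Gad1 (-0.31) and Gad2 (-0.29), the calcium buffer Pvalb (-0.36) and the peptide Sst (-0.30), are 4 of its defining genes, chosen here with their values known. The list's median was -0.28 and its members ran from -0.42 to 0.06. The list's medians were -0.04 in the nucleus accumbens and -0.14 in the prefrontal medial cortex. General neuron markers leaned the same way, with 10 of 11 negative, 5 of them in all 3 pool pairs, a median of -0.08, pair medians of -0.13, 0.00 and -0.24 and none that passed. Whether the interneuron markers differed from them was not tested. Among 17 GABA-A receptor subunits, none passed and 13 had a negative ratio. Gabra4 had ratios of -0.84, -0.61 and -0.92 (mean -0.79 ± 0.17, limma adjusted p = 0.177), and Gabrd, its partner in extrasynaptic receptors, had -0.35, -0.62 and -0.50. The 10 genes of GABA synthesis, transport and GABA-B receptors had a median of -0.10, with 8 below 0.

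Markers of tissue next to the hippocampus differed between pool pairs. All 15 markers of ependyma and choroid plexus had a positive mean ratio, but the list's median was 1.63 in pool pair 1, 0.14 in pool pair 2 and 0.62 in pool pair 3. Ttr, the thyroxine carrier of the choroid plexus, had ratios of 3.07, 0.22 and 1.05. The mean log2 signal of the list ran from 9.84 to 10.75 over the 6 WHP channels and from 9.03 to 9.97 over the 6 WLP channels, and every marker was well above background in both strains. Markers of meninges had medians of 1.28, -0.02 and 0.67. Striatum markers had medians of 0.02, -0.79 and -0.44, with Penk at -0.27, -1.14 and -1.16. Sostdc1, on the CA2 list, had ratios of 3.80, 0.62 and 1.33, with the pool pairs in the same order as for Ttr. Their part in the ratios of the oligodendrocyte, interneuron and GABA lists was not tested.

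Cytosolic ribosomal protein genes stood slightly above 0 as a list, though none of them passed in that direction. Of 88, 80 had a positive ratio, 68 of them in all 3 pool pairs, and the pair medians were 0.08, 0.07 and 0.08. The median was 0.13 on arrays with WHP in Cy5 and 0.02 on arrays with WHP in Cy3. Rpl38, the single member that passed, went the other way. The list's medians were -0.05 in the nucleus accumbens and -0.04 in the prefrontal medial cortex. Genes of the major histocompatibility complex and antigen presentation had a median of 0.22, with 25 of 36 positive, and none passed. At an unadjusted limma p under 0.05 there were 12 of them, against 983 of 14614 among all genes. Members of the list went both ways, and its median was 0.08 without pool pair 1. RT1-Bb stood at 0.59 and RT1-CE3 at -0.49. Near-identical copies in this family can share probes, so the 12 need not be separate observations. Of 24 interferon response genes, 20 had a positive ratio, and Mx2, which fell, was the only one that passed.

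Other lists tied to alcohol were small, and at the 0.226% of all genes that passed, few or no members of such lists would pass. Tac4 was the only one of 33 neuropeptide and receptor genes that passed, and 24 of the 33 had a negative ratio. Of 13 stress hormone genes none passed, with the corticotropin-releasing hormone receptor Crhr1 at -0.30, -0.59 and -0.34 (mean -0.41, limma adjusted p = 0.45). None of 9 ethanol and acetaldehyde oxidising enzymes passed, and their median was 0.01. Of 18 ionotropic glutamate receptor subunits none passed either. Cholesterol synthesis genes leaned below 0, with 17 of 22 negative, 12 of them in all 3 pool pairs, at a median of only -0.05. The medians of 16 of the 37 lists changed sign under some alternative analysis.

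The strain ratios of the hippocampus were set against those of the other areas with a test of the difference itself. No probe passed for the hippocampus against the nucleus accumbens, among 29842 tested (limma, 2106 at an unadjusted p under 0.05, lowest adjusted p 0.516), and none against the prefrontal medial cortex, among 28588 (941, lowest adjusted p 1.00). With arrays entered singly the counts were 10 and 1. The hippocampus arrays were scanned in a session of their own and were brighter than the others. They also lay on slides of their own, whereas the other areas shared slides. Area, slide, scan session and brightness of the arrays therefore cannot be told apart, which matters most for dim probes. Of the 126 hippocampus probes, 118 were tested in the nucleus accumbens, where 115 had the same sign and 48 passed as well. These 48 were 38.1% of the hippocampus probes and 58.5% of the 82 that passed in the nucleus accumbens (0.275%). In the prefrontal medial cortex 117 were tested, all with the same sign, and 36 passed, which was 28.6% of the hippocampus probes and 67.9% of the 53 that passed there (0.185%). All 3 areas shared 28 probes, 22.2% of those of the hippocampus. The fit uses the same estimate of a probe's spread in every area, so these shared calls are not independent of each other. The share of probes with the same sign was not counted over all tested probes.

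**Figure D5:**
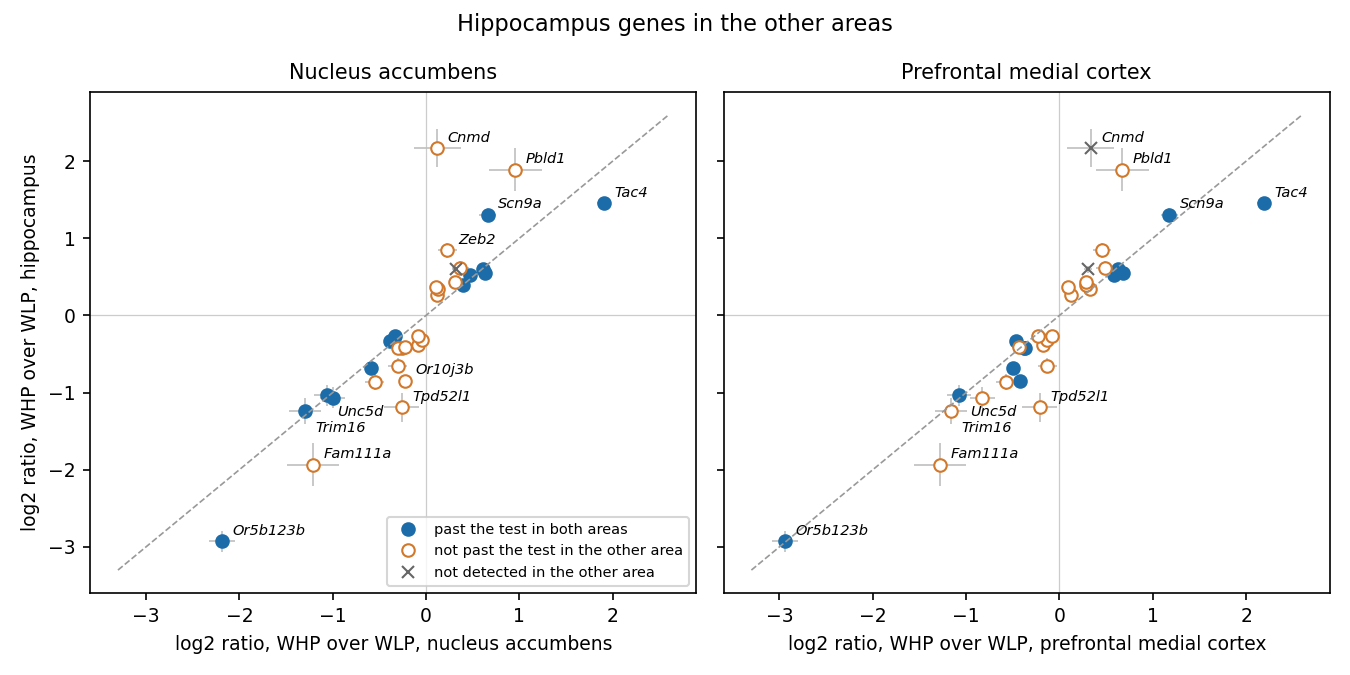
Mean log2 ratio of WHP over WLP in the hippocampus (vertical) against the ratio in the nucleus accumbens (left) or the prefrontal medial cortex (right) for the 33 genes that passed in the hippocampus. Grey bars are the moderated SE, filled circles also passed in the other area, open circles did not, crosses were not detected there, and the dashed line marks equal ratios. The points lie on 1 side of 0 in both areas of each panel, and Cnmd, at 2.17 against 0.12 in the nucleus accumbens, lies well above the line.

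Several genes with large hippocampus ratios had similar ratios elsewhere. Or5b123b stood at -2.18 in the nucleus accumbens and -2.94 in the prefrontal medial cortex, Trim16 at -1.29 and -1.16, Unc5d at -1.07 and -1.07, and Pla2g12a at 0.61 and 0.62. Cnmd stood at 0.12 in the nucleus accumbens and was not detected in the prefrontal medial cortex by the filter used. Its difference of 2.05 ± 0.35 from the nucleus accumbens had an unadjusted p of 0.000332 and did not pass (limma adjusted p = 0.707). Tpd52l1 stood at -0.26 in the nucleus accumbens and -0.21 in the prefrontal medial cortex, and its differences of -0.93 and -0.98 did not pass either. Tac4 had a smaller ratio in the hippocampus than in the nucleus accumbens (1.90) or the prefrontal medial cortex (2.19), with a difference of -0.73 ± 0.10 from the latter that did not pass (limma adjusted p = 1.00).

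The genes with the smallest p for a difference between areas are given as values, since none passed. Against the nucleus accumbens they included Maob, the monoamine oxidase of glia, with ratios of 0.05 and -0.38 (hippocampus first, difference 0.43 ± 0.07), and Or10j3b, at -0.84 and -0.22. Against the prefrontal medial cortex they included Adamts9, a protease of the extracellular matrix, with hippocampus ratios of 0.56, 0.39 and 0.59 and a difference of 0.65 ± 0.12. The actin-binding protein Coro7 was among them in both comparisons, with differences of 0.32 and 0.27.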

How the data were processed

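Per the file headers, the authors scanned 18 two-colour arrays and extracted spot intensities with Agilent Feature Extraction 10.10.1.1; the deposited intensity of each channel (mean foreground and median local background, linear units) was used. The authors' deposited value table holds log2 ratios and served as an alternative. Local backgrounds above 2 times the median of their array and channel were replaced by that median. Background was corrected by normexp with an offset of 50, and ratios were normalised by loess within each array without control spots; non-uniform spots were dropped. The dye labels gave each ratio its direction, WHP over WLP, and the arrays of a pool pair averaged. limma 3.58.1 in R 4.3.3 fitted 9 pool pairs with 1 coefficient per area (6 residual and 2.45 prior degrees of freedom). Tests were two-sided, over probes well above background on at least 4 of 6 hippocampus arrays in either strain, with Benjamini-Hochberg adjustment over all of them and a threshold of 0.05. The fit was also run on simulated pool pairs with independent noise. That run cannot show whether the calls in the real pool pairs hold. The SE of a ratio is limma's moderated SE, from a spread that the pool pairs of all areas share.

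Each gene was read from its brightest detected probe. Named genes were the 15 largest increases and 15 largest decreases among genes that passed with 1 sign in all pool pairs, up to 4 members of a list that passed, the 2 largest same-sign ratios of a list where none passed, and the smallest p-values of each difference between areas. Members and lists were chosen with earlier results of these data known. Symbols came from the RefSeq table of assembly GRCr8, used for names only: 17545 probes matched by their own accession, 411 by another accession, 2822 by a current symbol and 515 by an older one, and 19719 stayed unnamed. Probe positions and sequences are those of the files, on rn4. Whether replicate numbers pair the areas is not known, and the main fit did not pair them. Nothing in the labels says that the pools of 1 strain came from separate litters, so p-values measure the spread between these pools, taken over all areas.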

Additional observations from a re-analysis of the deposited data

Results flagged for a closer look

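Among 131 ratios and list medians of the hippocampus, 7 had 1 array well apart from the other 5; chance gives this in about 1 in 20. The first array of pool pair 2 gave 3 of them: Or5b123b was at -2.44 there and between -3.16 and -2.92 on the others, Unc5d at -0.35 against -1.34 to -1.02, and Appl1 at -0.27 against -1.16 to -0.85. On the second array of the same pair, Kdr was at 0.025 against 0.26 to 0.33, and the median of the cholesterol synthesis genes at 0.021 against -0.09 to -0.06. On the first array of pool pair 3, the median of the dentate granule cell markers was -0.24 against -0.06 to 0.01, and that of the circadian clock genes -0.080 against 0.02 to 0.06.

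For 10 of 94 named genes, all 3 pool pairs of the hippocampus had the opposite sign to all 3 of another area. The choice of named genes favours this. Some were picked for the smallest p of a difference between areas, and others for 1 sign in all 3 hippocampus pool pairs. The share over all genes was not counted, so the 10 are given as values only. Maob stood at -0.38 in the nucleus accumbens and -0.11 in the prefrontal medial cortex. Coro7 stood at -0.13 and -0.071, and Tmem255b at -0.16 and -0.13. Acss1 stood at -0.12 and -0.24. In the nucleus accumbens, Chac1 stood at 0.23, Plagl1 at 0.50, Flt1 at -0.12, Ttr at -0.80 and Grm3 at -0.38, and in the prefrontal medial cortex Grm6 stood at 0.18. None of these differences from the hippocampus passed the limma test after adjustment.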

How the results depend on the processing

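The number of hippocampus probes that passed was 22 with the scanner's processed signals, 26 with the deposited ratios, 41 with the hippocampus fitted alone, 0 with trend and robust variances (lowest adjusted p 0.366), 508 with arrays entered singly and 19 with 1 probe per gene. Leaving out 1 pool pair gave 16 to 152. The replicate number as a block gave 46, of which 42 passed without it. Same-numbered pool pairs correlated between areas at -0.37 to 0.16. These are correlations of deviations from the mean of each area, over 3 pool pairs. They cannot show whether the number pairs the same rats. Pool pairs with different numbers correlated at up to 0.36 (hippocampus pair 1 with prefrontal medial cortex pair 2), whereas the fit treats all 9 as independent. For differences between areas, 10 probes passed against the nucleus accumbens and 1 against the prefrontal medial cortex with arrays entered singly, and leaving out 1 pool pair gave 0 to 1 against the nucleus accumbens.

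The medians of the lists moved as follows. For interneuron markers it was -0.22 on arrays with WHP in Cy5 only and between -0.29 and -0.23 when 1 pool pair was left out; for oligodendrocyte markers 0.093 with WHP in Cy3 only; for cytosolic ribosomal proteins 0.13 with Cy5 only, 0.021 with Cy3 only, 0.058 with the processed signals, 0.095 with the deposited ratios, 0.090 without background replacement and 0.069 to 0.081 when 1 pool pair was left out; for antigen presentation genes 0.083 to 0.22 when 1 pool pair was left out. Signs turned for Prox1 (-0.0027 with median centring), Vcan (-0.059), Acss1 (-0.12) and Maob (-0.11) with Cy3 only, Grin1 (0.064) and B3galt2 (0.055) with Cy5 only, and the differences of Or10j3b (0.18 and 1.11) with the processed signals. The cause was not tested. For single named genes, 2308 alternative values kept sign and side of the threshold, 311 lost it, 9 gained it and 8 changed sign. Dim probes limit what can be said of ratios near background.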
